A study of Drosophila melanogaster with 6 samples.

Results

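Glutamine tRNAs carry glutamine to the ribosome and read 2 codons, with the anticodon CTG (written as DNA, bases 34 to 36 of the tRNA) or TTG. The RNAs described here are pieces of these tRNAs, chosen as every sequence listed at a tRNA gene whose name ends in GlnCTG or GlnTTG. These were 12 of 297 listed tRNA genes, 8 for CTG and 4 for TTG, and 360 of 3099 distinct sequences, with 2581 reads in all 6 libraries. Small RNAs of 25 to 70 nt were sequenced from whole bodies without testes of adult male Drosophila melanogaster of strain w1118. The heterozygous flies (w1118; +/Dnmt2 mutant;+/+) carry 1 mutant allele of Dnmt2, and the mutants (w1118; Dnmt2 mutant/Dnmt2 mutant;+/+) carry it on both chromosomes. The sample labels were followed in calling the first group heterozygous, although the series title calls it wild type. Control flies were 10 days old and untreated, heat shock flies were 10 days old and were sampled 5 h at room temperature after 1 h at 37 °C, and recovery flies were 12 days old and were sampled 2 days after the heat. Each of these 6 groups had 1 library, and no label states that flies of different libraries were reared apart. The p-values thus speak only of the spread between these libraries, which the model pools over tRNAs. Recovery and the age difference cannot be told apart.

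The enzyme Dnmt2 methylates the cytosine at position 38 of the anticodon loop, and its known fly substrates are the tRNAs Gly-GCC, Val-AAC and Asp-GTC. Under stress, tRNAs can be cut in the anticodon loop into 5′ and 3′ pieces, and loss of Dnmt2 is known to leave its substrate tRNAs more open to such cuts. All 12 Gln genes have A, not C, at base 38. The Dnmt2 transcript and the cell type makeup of the bodies were not analysed here, because the lists hold tRNA sequences only. In such bulk samples, fewer cells of a type and less RNA per cell cannot be told apart.

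Values are given throughout in the order control, heat shock, recovery. Heterozygote libraries held 15337, 46062 and 28522 tRNA-derived reads, each counted once, and mutant libraries held 67477, 37463 and 5113. Glutamine reads numbered 172, 272 and 516 in heterozygotes and 1036, 518 and 67 in mutants, or 1.12%, 0.591% and 1.81% of reads against 1.54%, 1.38% and 1.31%. The mutant recovery library is the thinnest, so its values carry the widest intervals. No listed sequence was longer than 51 nt, so a read of 51 nt may be the start of an RNA of any length from 51 nt up. Reads of 51 nt and short reads of 30 to 50 nt were therefore kept apart.

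The 12 genes fell into 6 sequences of 72 annotated bases, which were found to differ at 7 positions. For Gln-CTG-1, described last, 65 of the 72 bases could be rebuilt from the reads, so differences in its other bases were not seen. Gln-CTG-2 stands for 5 identical genes, 4 on chromosome arm 2L and 1 on X, and Gln-CTG-3 and Gln-CTG-4 for 1 gene each on 2L. Gln-TTG-1 stands for 3 identical genes, 1 on 3L and 2 on 3R, and Gln-TTG-2 for 1 gene on X. Against Gln-CTG-2, Gln-CTG-3 has C6T and G66A, Gln-CTG-4 has C6T, C27T, A28T, T42A and G66A, and Gln-TTG-1 has C6T, A28T, C34T, T42A and G66A; positions count from 1 at the first base of the tRNA, with the base of Gln-CTG-2 first. The reads below are the unchanged 51-nt starts of 3 genes that rose in the mutants and the main short pieces, with the bases that differ between Gln genes in capitals.
Gln-CTG-4, bases 1 to 51: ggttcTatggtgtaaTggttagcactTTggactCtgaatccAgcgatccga
Gln-CTG-3, bases 1 to 51: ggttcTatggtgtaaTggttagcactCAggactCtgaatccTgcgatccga
Gln-TTG-1, bases 1 to 51: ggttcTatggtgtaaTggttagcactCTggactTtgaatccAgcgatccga
Gln-CTG-2, bases 1 to 36: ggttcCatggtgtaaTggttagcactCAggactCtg
Gln-CTG-2, bases 1 to 33: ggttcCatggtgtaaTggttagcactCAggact
Gln-TTG-1, bases 1 to 34: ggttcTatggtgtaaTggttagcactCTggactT
Gln-CTG-2 or Gln-CTG-3, bases 17 to 54: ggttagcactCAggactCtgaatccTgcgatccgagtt
Gln-CTG-2, bases 30 to 72: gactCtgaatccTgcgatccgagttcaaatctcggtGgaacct

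The first 3 of these differ at no more than 3 positions and share T at base 6. A 51-nt read from base 1 was listed whole at genes within 3 mismatches that have the same base 6. This held for all 303 listed pairs of a read and a Gln gene, and each of the 125 pairs within 3 mismatches that were not listed differed at base 6. A 51-nt read of Gln-CTG-4 was thus also listed at TTG genes, from which it differs at 2 positions in the first 51, and one of Gln-CTG-3 at 3. Listed reads of 36 nt or less matched their genes without a mismatch. The lists thus give 3 classes, namely reads listed at CTG genes only, at TTG genes only, and at both.

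Reads of 51 nt listed at both CTG and TTG genes were the class in which the genotypes stood farthest apart. They numbered 8, 16 and 17 in heterozygotes and 331, 107 and 10 in mutants, which is 0.0522%, 0.0347% and 0.0596% of tRNA-derived reads against 0.491%, 0.286% and 0.196%. Every mutant library lay above every heterozygote library in this share, as for 10.3% of the 39 features with at least 50 reads and 42.9% of the 7 features of 51 nt among them. Reads of 51 nt listed at CTG genes only numbered 17, 30 and 26 in heterozygotes and 141, 111 and 10 in mutants, or 0.111%, 0.0651% and 0.0912% against 0.209%, 0.296% and 0.196%. The groups did not overlap here either, so 2 of the 3 such features of 51 nt were Gln. For TTG genes alone, heterozygotes had 0 such reads in each library and mutants had 5, 2 and 0, which fell under the minimum of 50 reads for a test.

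**Figure D1:**
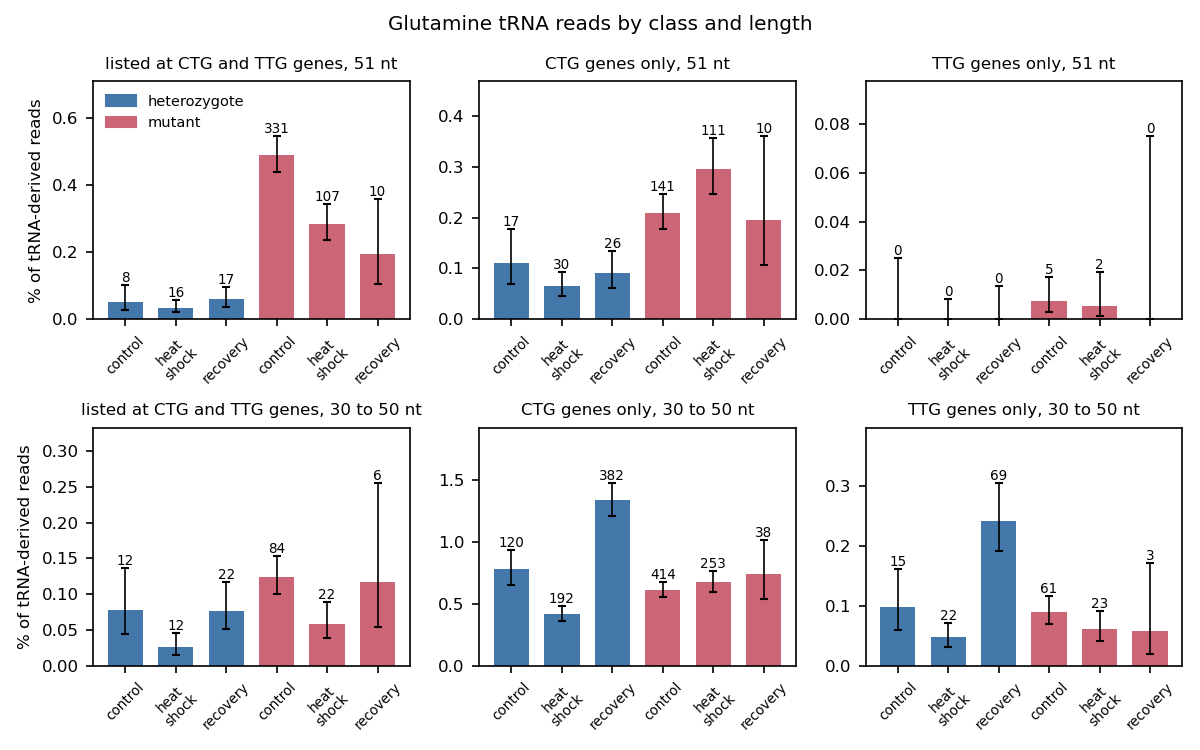
Percent of tRNA-derived reads in each of the 6 libraries for Gln reads of 51 nt (top) and of 30 to 50 nt (bottom), by class; bars are single libraries, lines are 95% Wilson intervals, numbers are read counts, and the vertical scale differs between panels. The 51-nt reads listed at both isoacceptors or at CTG genes only were higher in each of the 3 mutant libraries, with 331 against 8 reads in the control pair of the shared class.

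In the fit over all 6 libraries, the 51-nt reads shared by CTG and TTG rose in mutants, with a log2 fold change of 3.05 and an SE of 0.33 over 3 against 3 libraries (edgeR quasi-likelihood test, adjusted p = 1.81e-06). Those of CTG genes alone rose by 1.79 ± 0.32, written as log2 fold change ± SE from here on (edgeR adjusted p = 0.000368). With mismatch-free 51-nt reads alone, a setting added after the data were seen, that call ended (0.89 ± 0.47, adjusted p = 0.190) and the call for the shared class held (2.68 ± 0.37, adjusted p = 0.000746). Both tested Gln classes of 51 nt were thus called higher, 2 of 2, among 7 tested features of 51 nt of which 71.4% were called higher and 14.3% lower. Of all 39 tested features, 28.2% were called in either direction. The minimum of reads for a test was summed over all 6 libraries. At 51 nt, heterozygotes held 8, 16 and 17 shared Gln reads and 10, 4 and 4 of His-GTG. Mutants held 331, 107 and 10, and 73, 26 and 3, so these features met the minimum through mutant reads. The others of the 7 also met it with heterozygote reads alone. Among the 7 as filtered a rise was common, and the part of the filter in it was not tested. Their median log2 fold change was 1.79, against -0.02 for the 32 short features. Both calls ended without the heat shock library of either genotype, at 2.99 (adjusted p = 0.0795 and 0.0900) for the shared reads and at 1.47 (0.156 and 0.151) for CTG, where 2 pairs of libraries carry the contrast.

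The pairs of libraries gave the same direction. For shared 51-nt reads the mutant exceeded the heterozygote on the log2 scale by 3.48 (95% exact interval 2.63 to 4.85) in control, 2.97 (2.40 to 4.02) in heat shock and 2.14 (1.02 to 3.51) in recovery. For 51-nt reads of CTG genes alone it was 1.26 (0.58 to 2.13), 2.21 (1.72 to 2.94) and 1.60 (0.47 to 2.79). All 6 intervals lay above 0, and the ratios kept their sign with RLE size factors and with total counts, although with total counts the CTG interval in recovery reached from -0.12 to 2.20. These intervals cover counting error only, since the reads carry no molecular identifiers.

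No class of short Gln reads was called between genotypes. Those of CTG genes alone numbered 120, 192 and 382 in heterozygotes and 414, 253 and 38 in mutants, a log2 fold change of 0.22 ± 0.30 (edgeR adjusted p = 0.646). Those of TTG genes alone numbered 15, 22 and 69 against 61, 23 and 3, at -0.04 ± 0.45 (adjusted p = 0.971). The shared short reads, at 12, 12 and 22 against 84, 22 and 6, stood at 1.17 ± 0.47 (adjusted p = 0.0760). Of the 3 short Gln classes 0 passed with edgeR and 0 with DESeq2, and 1 had an unadjusted p under 0.05 with either tool. Among 32 short features 3.12% were called higher and 12.5% lower.

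The CTG ratios within pairs were 0.05 (95% exact interval -0.25 to 0.35) in control, 0.81 (0.54 to 1.10) in heat shock and -0.26 (-0.78 to 0.22) in recovery. With RLE size factors or total counts, 1 of these 3 pairs was higher instead of 2. The shared short reads were higher in 3 of 3 pairs under each of the 3 scalings, at 1.01 (0.19 to 2.08), 1.13 (0.22 to 2.44) and 1.10 (-0.40 to 2.54) with TMM. They had 6 reads in mutant recovery and 12 in each of the heterozygote control and heat shock libraries. With RLE size factors each interval included 0 (-0.08 to 1.80, -0.04 to 2.18 and -0.48 to 2.46).

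The difference between lengths was itself tested, with each library as its own control. The 2 lengths of a class do not hold the same genes or pieces. All 106 unchanged 51-nt reads nearest to Gln-CTG-3 were in the shared class, while its 163 short reads were listed at CTG genes alone. Of the 158 shared short reads, 4 started at base 1 and 79.1% lay inside the tRNA. A difference between lengths here is thus also one between genes and kinds of piece. The genotype effect on 51-nt reads exceeded that on short reads by 1.49 ± 0.29 on the log2 scale for CTG genes alone (edgeR adjusted p = 3.39e-05) and by 1.96 ± 0.68 for the shared class (adjusted p = 0.0407). Of 32 isoacceptor classes tested, 12.5% were called, all higher, and these were the 2 Gln classes, Gly-TCC at 2.42 ± 0.27 and Val-CAC at 4.17 ± 1.13. Val-CAC had fewer than 50 reads of 51 nt, and its short reads were themselves called lower in mutants (-1.04 ± 0.27, edgeR adjusted p = 0.0120). The TTG class could not be resolved (3.57 ± 4.29). Among the 7 classes with at least 50 reads of each length, a limit added after the data were seen, the values were 1.49 ± 0.19 and 1.96 ± 0.34, with adjusted p = 7.81e-06 and 1.00e-04, where 57.1% of the 7 were called. Both calls ended with mismatch-free 51-nt reads, at 0.50 ± 0.37 for CTG (adjusted p = 0.983) and 1.54 ± 0.79 for the shared class (0.443). The shared call also ended without either control library (1.59 and 1.60, adjusted p = 0.249 and 0.158), with no filter on low counts (0.0545) and with short reads corrected for changed bases (0.0698). It ended as well with short reads from base 1, a setting that rests on those 4 reads. The correction for changed bases left the shared short counts nearly as they were, at 85.0 against 84 in mutant control.

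As a plain share, reads of 51 nt made up 14.5% (95% Wilson interval 10.04 to 20.6), 16.9% (12.9 to 21.8) and 8.33% (6.25 to 11.04) of Gln reads in heterozygotes. In mutants they made up 46.0% (43.03 to 49.1), 42.5% (38.3 to 46.8) and 29.9% (20.2 to 41.7). The means were 13.3% and 39.5%, and the mutant share was higher by 21.5 to 31.5 percentage points in 3 of 3 conditions (mean 26.2, exact paired permutation p = 0.25, 2-sided, the smallest that 3 pairs allow). Over all tRNAs the share of 51-nt reads was 3.49%, 3.96% and 4.47% in heterozygotes and 3.16%, 3.76% and 6.69% in mutants, lower in the mutant in control and heat shock and higher in recovery.

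**Figure D2:**
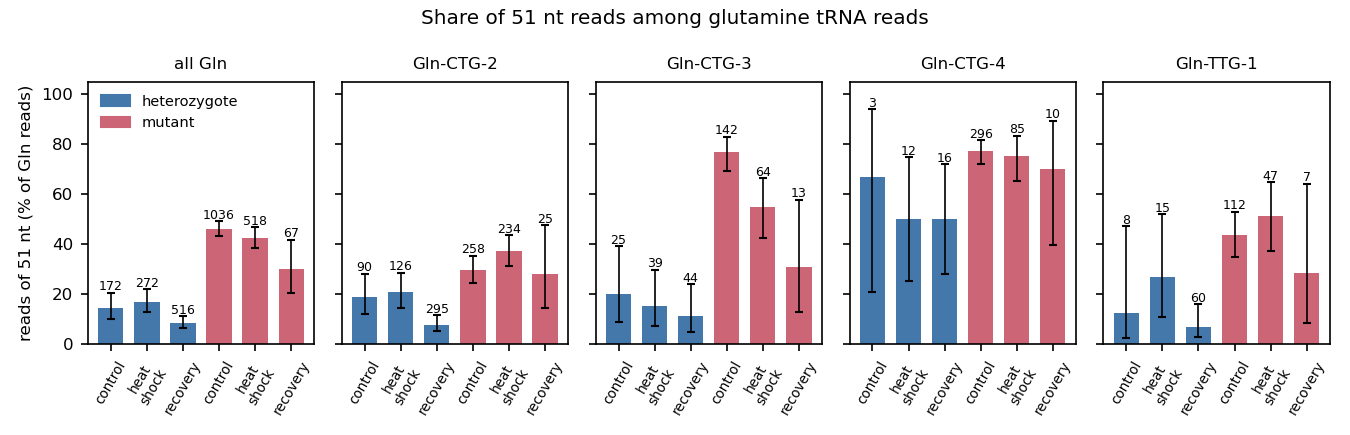
Reads of 51 nt as a percent of Gln reads in each library, for all Gln reads and for reads placed on each of 4 gene sequences; lines are 95% Wilson intervals and numbers are the Gln reads behind each share. Among all Gln reads the 3 mutant shares (29.9% to 46.0%) lie above the 3 heterozygote shares (8.33% to 16.9%), and Gln-CTG-4 has shares of 50% or more in every library.

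Since the 2 classes mix genes, each read was also placed on its nearest gene sequence, a grouping added after the data were seen. Most shared 51-nt reads came from CTG genes. Of the 489 with a base at 34, 83.6% had C, the CTG letter, and 16.4% had T; Gln-CTG-4 was nearest for 303 of the shared reads, Gln-CTG-3 for 106 and Gln-TTG-1 for 79. The 51-nt reads of CTG genes alone were nearest to Gln-CTG-2 in 236 cases, to Gln-CTG-3 in 58, to Gln-CTG-1 in 27 and to Gln-CTG-4 in 12.

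Gln-CTG-4 had the largest fitted genotype difference among the 4 tested gene sequences. Its 51-nt reads numbered 2, 6 and 8 in heterozygotes and 228, 64 and 7 in mutants, a rise of 3.73 ± 0.47 (edgeR adjusted p = 0.000246). Gln-CTG-3 followed with 5, 6 and 5 against 109, 35 and 4 (2.71 ± 0.51, adjusted p = 0.00327) and Gln-TTG-1 with 1, 4 and 4 against 49, 24 and 2 (2.82 ± 0.85, adjusted p = 0.0315). Gln-CTG-2, the sequence with the most gene copies, had 17, 26 and 23 against 76, 87 and 7 (1.25 ± 0.42, adjusted p = 0.0423). All 4 tested gene sequences were called higher, in a fit in which 30.2% of 43 features were called and 18.6% were called higher. The minimum of reads for a test was summed over all libraries. At 51 nt, heterozygotes held 16 reads of Gln-CTG-3, 16 of Gln-CTG-4 and 9 of Gln-TTG-1, and mutants held 148, 299 and 75. These sequences thus met the minimum through mutant reads, and the part of this filter in the 4 calls was not tested. Differences between the 4 were not tested, and the values of Gln-CTG-3 and Gln-TTG-1 lie within their errors of each other. In pairs, Gln-CTG-2 stood at 0.40 (95% exact interval -0.35 to 1.27) in control, 2.05 (1.52 to 2.86) in heat shock and 1.26 (-0.11 to 2.62) in recovery, while Gln-CTG-4 stood at 4.53 (3.22 to 8.15), 3.35 (2.64 to 5.34) and 2.53 (1.18 to 4.54).

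Among the short reads placed in the same way, Gln-CTG-4 alone passed the test. It met the minimum of reads for a test through mutant reads, at 92 against 15 in heterozygotes. It had 1, 6 and 8 short reads in heterozygotes and 68, 21 and 3 in mutants (2.42 ± 0.74, adjusted p = 0.0315). Of its 107 short reads, 71 started at bases 7 to 10 and ended at 51 to 53, at or past the end of a 51-nt read from base 1. Whether these are shortened forms of longer reads was not tested. Only 21 began at base 1, with 0, 3 and 2 in heterozygotes and 11, 3 and 2 in mutants. Short reads of Gln-CTG-2 stood at -0.15 ± 0.38 (adjusted p = 0.800), those of Gln-CTG-3 at -0.09 ± 0.45 (0.930) and those of Gln-TTG-1 at 0.78 ± 0.52 (0.277). The test of length by genotype passed for Gln-CTG-3 (2.93 ± 0.59, adjusted p = 8.44e-05) and Gln-CTG-2 (1.21 ± 0.36, adjusted p = 0.00943), but not for Gln-CTG-4 (1.36 ± 0.89) or Gln-TTG-1 (1.92 ± 0.91), where 11.8% of 34 classes were called.

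**Figure D3:**
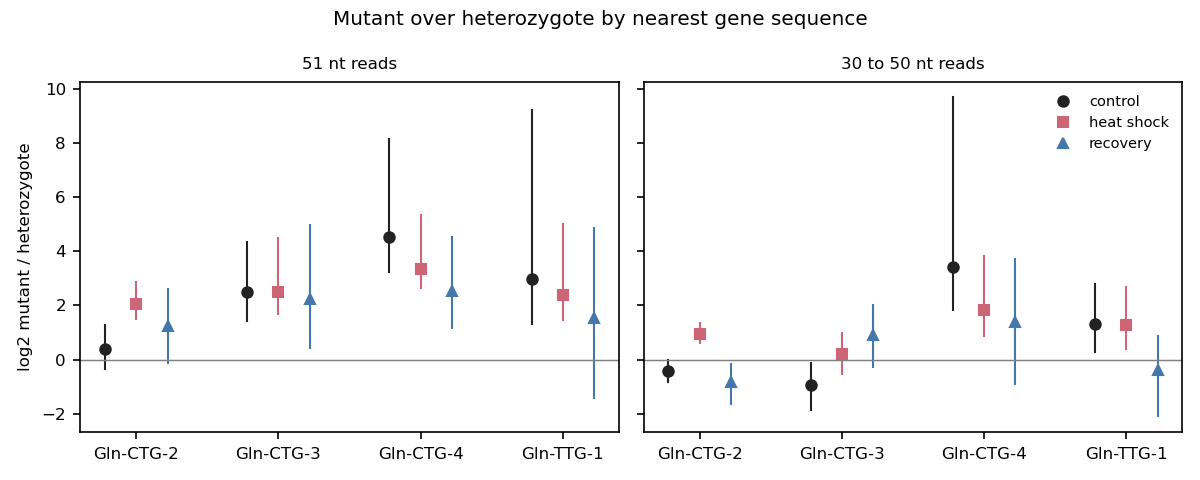
Log2 ratio of mutant over heterozygote within control, heat shock and recovery for reads placed on 4 Gln gene sequences, 51 nt on the left and 30 to 50 nt on the right; points are TMM-scaled ratios with a prior count of 2 and lines are exact 95% intervals for counting error. All 12 points for 51-nt reads lie above 0, from 0.40 for Gln-CTG-2 in control to 4.53 for Gln-CTG-4 in control, whereas short reads fall on either side except for Gln-CTG-4.

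Single 51-nt sequences followed the same pattern. The unchanged start of Gln-CTG-4 printed above was read 2, 5 and 7 times in heterozygotes and 144, 38 and 2 times in mutants. The start of Gln-CTG-3 was read 5, 6 and 5 times against 67, 20 and 2, and that of Gln-TTG-1 1, 3 and 2 times against 32, 13 and 1. In the recovery pair the raw counts of all 3 were lower in the mutant, whose library held 5113 reads against 28522. The unchanged 51-nt start of Gln-CTG-2 was read 13, 22 and 15 times in heterozygotes and 41, 46 and 3 times in mutants.

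Other frequent 51-nt reads carried a base change, and these were split by genotype. Gln-CTG-4 reads with A7C or A24C, shown here with the changed base in capitals, were each among the 10 most frequent 51-nt Gln reads.
Gln-CTG-4 with A7C: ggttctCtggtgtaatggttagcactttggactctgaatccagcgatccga
Gln-CTG-4 with A24C: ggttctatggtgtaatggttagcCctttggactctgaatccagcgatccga
The first was read 28, 6 and 1 times in mutants and the second 25, 10 and 0 times, and neither in heterozygotes. The same 2 changes on Gln-CTG-3 were read 16, 2 and 0 times (A7C) and 14, 6 and 2 times (A24C) in mutants, and in no heterozygote library. A Gln-CTG-2 read with G9T occurred in both genotypes, at 1, 2 and 4 against 7, 5 and 0.

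Over all 51-nt Gln reads from base 1, mutant libraries had A7C in 15.8%, 12.04% and 15.8% of reads and A24C in 14.9%, 18.1% and 21.1%. In heterozygotes both were found in 0 of 24, 45 and 41 reads, which allows up to 12.5%, 6.67% and 7.32%. A37C and A38C were rarer, at 18 and 10 mutant reads in all against 0. Base 9, a G, was read as another base in 8.33%, 13.3% and 17.1% of heterozygote reads and in 8.40%, 10.2% and 21.1% of mutant reads, and the ranges of the genotypes overlapped. C in place of A was also found beyond Gln. Among 51-nt reads of all tRNAs with an A at position 7 it made up 14.9% to 16.1% in the mutant libraries and at most 0.222% in heterozygotes. At position 24 it was 12.3% to 15.2% against at most 0.121%, and at position 37 4.40% to 5.00% against at most 0.265%. This split follows genotype in all 6 libraries. Genotype and any other difference between the mutant and heterozygote libraries thus cannot be told apart in the 51-nt results. The part of these changes in the results on 51-nt reads was not tested beyond the values that follow.

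These changed reads touch the classes. A Gln-CTG-3 read with 1 more change lies 4 mismatches from the TTG genes and is listed at CTG genes only, and all 58 changed Gln-CTG-3 reads, of which 0 came from heterozygotes, fell there. The setting on mismatch-free 51-nt reads given above leaves out changed reads of either genotype, and in these libraries such reads were mostly from mutants. Short reads of up to 36 nt with such a change are not in the lists. Short reads that begin like a frequent 51-nt read were scaled up by the share of changed 51-nt reads, and other short reads were left as they were. This raised the mutant short counts of CTG genes from 414, 253 and 38 to 488, 304 and 45.1, and of TTG genes from 61, 23 and 3 to 74.6, 28.8 and 3.43. Shared short reads, few of which start at base 1, went only from 84, 22 and 6 to 85.0, 22.4 and 6.

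Of the 1750 short reads, 926 (52.9%) started at base 1, 647 (37.0%) lay inside the tRNA and 176 (10.1%) ended at base 72, its last annotated base. The share of 5′ pieces varied by library. It was 56.5%, 39.8% and 70.4% for control, heat shock and recovery heterozygotes, against 40.4%, 58.05% and 44.7% for the mutants. In mutant control internal reads were more frequent (52.1%). The most frequent was the 36-nt piece of Gln-CTG-2 printed above, which ends with the last base of the anticodon. It was read 47, 54 and 162 times in heterozygotes and 118, 92 and 9 times in mutants, or 482 of the 1750 short Gln reads. The 33-nt piece, which ends just before the anticodon, was read 12, 7 and 63 times against 17, 20 and 1, and was most frequent in the heterozygote recovery library. A 43-nt piece from base 1 was read 3, 3 and 10 times against 5, 5 and 3.

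Where 5′ pieces ended differed between the isoacceptors as listed. Of 801 short reads from base 1 at CTG genes alone, 505 (63.0%) ended at 36 and 138 (17.2%) at 33. Of 121 at TTG genes alone, 54 (44.6%) ended at 34, the first base of the anticodon, 34 (28.1%) at 41 and 1 at 36. Bases 34 and 42 are among those that differ between Gln genes, and the part of read matching in ends at 34 or 41 was not tested. The 34-nt piece of Gln-TTG-1 printed above was read 1, 3 and 15 times in heterozygotes and 19, 8 and 0 times in mutants. The 41-nt piece was read 1, 2 and 18 times against 5, 1 and 1.

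**Figure D4:**
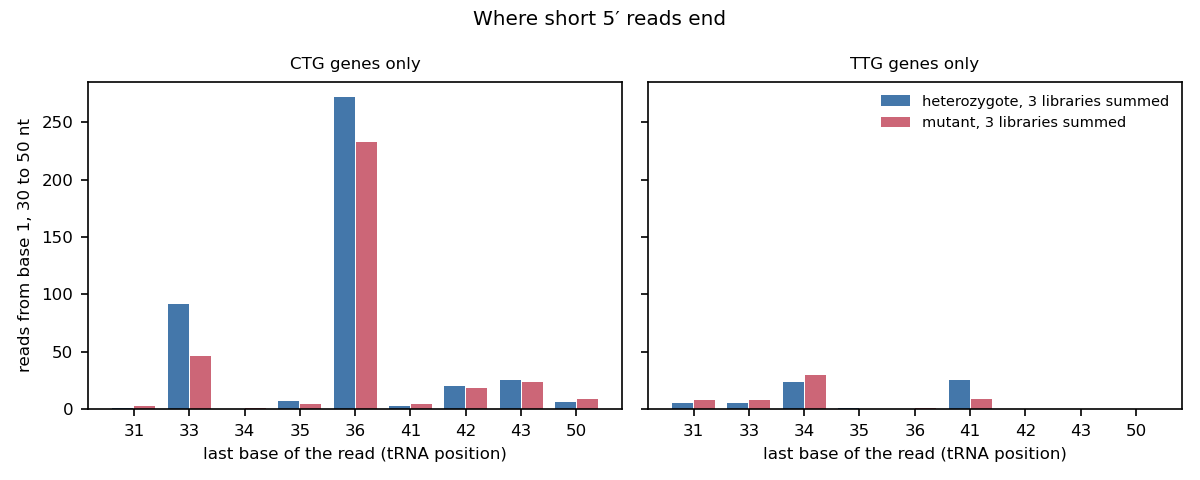
Number of short Gln reads from base 1 by their last base, for CTG genes alone (left) and TTG genes alone (right), summed over the 3 heterozygote and the 3 mutant libraries; bars are raw sums over libraries of unequal size. Reads of CTG genes end mainly at 36 and 33, and reads of TTG genes most often at 34 and 41, in both genotypes.

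The share of CTG 5′ pieces ending at 36 was 62.3%, 67.5% and 59.6% in heterozygotes and 68.1%, 62.9% and 10 of 20 in mutants. The share ending at 33 was 19.5%, 9.64% and 24.5% against 11.7%, 15.2% and 1 of 20. Neither showed a genotype difference with the same sign in all 3 pairs.

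Inside the tRNA, 364 reads (20.8% of short Gln reads) started at bases 14 to 22 and ended at 53 or 54, in the T arm. They made up 16.3%, 22.6% and 13.95% of short Gln reads in heterozygotes and 29.3%, 17.8% and 12.8% in mutants, with no common direction. The main one, bases 17 to 54, was read 7, 19 and 17 times against 58, 10 and 0. Others from bases 22 and 20 to the same end were read 32 and 27 times over the 6 libraries, and forms from bases 10 and 8 to 53, nearest to Gln-CTG-4, 32 and 28 times. Reads that started at 7 to 10 and ended at 51 to 53 numbered 6, 4 and 6 in heterozygotes and 71, 24 and 5 in mutants. They made up 4.08%, 1.77% and 1.27% of short Gln reads against 12.7%, 8.05% and 10.6%, a difference that was not tested. Of these 116 reads, 71 were nearest to Gln-CTG-4. Among 3′ pieces, 85 began at 30 to 32 and 70 at 35 to 41. The 3′ piece from base 30, shown as an example of its kind and chosen after its values were seen, was read 2, 3 and 6 times in heterozygotes and 4, 3 and 2 times in mutants. Starts at 30 to 32 numbered 10, 31 and 17 against 13, 10 and 4.

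Heat shock called none of the Gln classes. Shared 51-nt reads stood at -0.78 ± 0.37 (2 libraries against 2, edgeR adjusted p = 0.188), shared short reads at -1.30 ± 0.54 (0.121), CTG 51-nt reads at -0.04 ± 0.36 (0.913), CTG short reads at -0.35 ± 0.36 (0.517) and TTG short reads at -0.81 ± 0.51 (0.254). Of 5 tested Gln features 0 passed with edgeR, 2 had an unadjusted p under 0.05 and 0 did with DESeq2, where 12.8% of 39 features were called with edgeR, 2.56% higher and 10.3% lower. The median of all 39 features was -0.35 and moved to 0.04 with RLE size factors, so the CTG values, which turned positive with RLE (0.35 and 0.04), follow the scaling. The shared short reads were lower in both genotypes under each of the 3 scalings, at -1.27 (95% exact interval -2.73 to -0.16) in heterozygotes and -1.14 (-1.96 to -0.52) in mutants with TMM. With RLE size factors these were -0.93 (-2.33 to 0.23) and -0.76 (-1.56 to -0.12), so the heterozygote interval then included 0. The heterozygote value rests on 12 reads in each of its 2 libraries.

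Within genotypes, Gln-CTG-2 moved in opposite directions after heat shock. Its short reads went from 73 to 100 in heterozygotes, a log2 ratio of -0.97 (95% exact interval -1.44 to -0.54) once scaled, and from 182 to 147 in mutants, at 0.40 (0.09 to 0.73). With RLE size factors these were -0.59 (-1.05 to -0.14) and 0.80 (0.49 to 1.13), and with total counts -1.11 and 0.53. Its 51-nt reads stood at -0.77 (-1.77 to 0.14) and 0.88 (0.45 to 1.38). With 1 library a group this difference has no test. Of the 8 features placed on single gene sequences, 0 passed for heat shock with edgeR and 0 had an unadjusted p under 0.05, where 6.98% of 43 features were called, 2.33% higher and 4.65% lower.

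Recovery against control called no Gln feature either. Shared 51-nt reads stood at -1.07 ± 0.41 (2 libraries against 2, edgeR adjusted p = 0.363), CTG 51-nt reads at -0.57 ± 0.40, shared short reads at -0.48 ± 0.58, CTG short reads at 0.13 ± 0.36 and TTG short reads at 0.27 ± 0.54. Of 5 Gln features 0 passed with edgeR, 1 had an unadjusted p under 0.05 and 0 did with DESeq2, and 0% of 39 features were called. In heterozygotes the CTG short reads were 0.782% of tRNA-derived reads in control and 1.34% in recovery, a log2 ratio of 0.77 (95% exact interval 0.48 to 1.08) with total counts and of 0.24 (-0.06 to 0.55) with the TMM factor of the recovery library, 1.50. Gln-TTG-1 short reads went from 7 to 56 there, at 1.45 (0.43 to 2.95), and from 63 to 5 in mutants, at -0.26 (-1.95 to 1.02).

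Neither treatment gave a call for the balance of lengths in the 3 Gln classes. For heat shock the length difference was 0.32 for CTG and 0.39 for the shared class, and for recovery -0.75 and -0.56, with 0 of 3 Gln classes passing and 0 at an unadjusted p under 0.05 (edgeR), and 0% of 32 classes called for either. With all Gln reads as 1 feature, the recovery value was -1.03 ± 0.31 (edgeR adjusted p = 0.0425), the share of 51-nt reads being lower in recovery than in control in both genotypes.

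Among the isoacceptor classes of 51 nt with at least 50 reads, those whose scaled log2 counts followed the shared Gln reads most closely over the 6 libraries were Gly-TCC (Pearson r = 0.96), the 51-nt reads of CTG genes alone (0.94) and His-GTG (0.85). These are descriptions over 6 libraries that share depth and scaling. Gly-TCC 51-nt reads numbered 26, 59 and 36 in heterozygotes and 574, 325 and 41 in mutants (2.94 ± 0.30), and its short reads stood at 0.49 ± 0.26. His-GTG 51-nt reads numbered 10, 4 and 4 against 73, 26 and 3 (2.06 ± 0.69). Its short reads, at 5, 10 and 6 against 79, 76 and 7, were called higher as well (2.98 ± 0.47). Both lengths of His-GTG met the minimum of reads for a test through mutant reads, and the part of this filter in the calls was not tested. Without either heat shock library the calls for Gly-TCC (2.98) and His-GTG (1.54 at 51 nt, 2.70 short) ended, and without either recovery library that for His-GTG at 51 nt (1.87 and 1.93).

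Of the Dnmt2 substrates, Gly-GCC had 47, 112 and 104 reads of 51 nt in heterozygotes and 324, 110 and 213 in mutants and was called higher (1.79 ± 0.55, edgeR adjusted p = 0.0188). That call ended without any 1 of the 6 libraries, and the value was 0.71 ± 0.42 (adjusted p = 0.241) without mutant recovery and 0.64 (0.201) without heterozygote recovery. Gly-GCC stood at 0.71 ± 0.35 in short reads, Asp-GTC short reads stood at -0.73 ± 0.34 (adjusted p = 0.125), and Val-AAC had too few reads to test. The glutamate tRNAs, Glu-CTC and Glu-TTC, had negative values at 51 nt, and Glu-CTC fell, at -1.07 ± 0.30 (adjusted p = 0.0142). That call ended without any library but heterozygote recovery (-1.21 to -1.01). Glu-TTC stood at -0.49 ± 0.27 (0.173). Of the tRNAs with G at 34 that can carry queuosine, His-GTG was called and the short reads of Asn-GTT (0.09 ± 0.32), Tyr-GTA (0.04 ± 0.55) and Asp-GTC were not.

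The remaining Gln genes gave few reads. Gln-CTG-1, a single gene on arm 2R, had 0, 3 and 3 reads of 51 nt in heterozygotes and 12, 9 and 0 in mutants, among them 0, 3 and 3 against 6, 7 and 0 without a base change, and 16 short reads in all. Gln-TTG-2 had 0, 0 and 0 against 2, 1 and 0 reads of 51 nt, and 15 short reads. Of all 360 Gln sequences, 44 had at least 10 reads over the 6 libraries and 199 were read a single time.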

How the data were processed

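The deposited files hold counts of each read sequence at each tRNA gene, whole numbers that were not normalized, per the file headers. The submitters' processing notes name Bowtie and dm3; no version or mismatch setting was given there, and the mismatch limits stated here were read off the listed sequences. No dm3 genome was used, so no coordinates are given; gene names were matched to RefSeq by synonym (288 of 297 genes, all 12 Gln). Each read was counted once, taking longer reads off their shortened forms, and Gln gene sequences were rebuilt from overlapping reads. Counts were summed per isoacceptor class and length. Features with at least 50 reads were tested with edgeR 4.0.16 (R 4.3.3; glmQLFit and glmQLFTest, TMM, genotype and condition as additive terms, 2 residual degrees of freedom, Benjamini-Hochberg, threshold 0.05, 2-sided), with DESeq2 1.42.0 as an alternative. The test of length had each library as a block. The common biological coefficient of variation was 0.290 over 39 features. The edgeR tests of level and of length were tried on simulated data for the genotype contrast only, as were the read counting and the exact intervals on simulated reads and counts. The other contrasts, DESeq2 and the permutation test were not. Library totals cover tRNA reads only and are not sequencing depth. Named sequences were the 10 most frequent of each length, to which a 3′ piece was added after values were seen; the tRNAs to compare were taken by rule and from lists of Dnmt2 substrates, glutamate tRNAs and tRNAs with G at 34. The members and lists were chosen with earlier results of these data known.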

Additional observations from a re-analysis of the deposited data

Results flagged for a closer look

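In these results the log2 ratio to control had opposite signs in the 2 genotypes and the 95% exact interval of at least 1 of the 2 left out 0. With 1 library a group, none of the differences was tested. After heat shock, 51-nt reads of CTG genes alone stood at -0.58 in heterozygotes and 0.37 in mutants on the log2 scale, and their short reads at -0.76 and 0.0072. The Gln-CTG-2 reads of 51 nt stood at -0.77 and 0.88 and its short reads at -0.97 and 0.40. The Gln-CTG-4 reads of 51 nt went the other way, at 0.10 and -1.09 after heat shock and at 0.41 and -1.60 in recovery, from 2 reads in the heterozygote control, and its short reads at 0.68 and -0.91 after heat shock, from 1 read. With total counts the heterozygote value of 0.10 was -0.0011, so that contrast of signs was lost. Short reads of Gln-CTG-3 stood at -0.44 and 1.42 in recovery, and those of Gln-TTG-1 at 1.45 and -0.26. These signs also depend on the scaling. The Gln-CTG-3 value in heterozygotes was 0.07 with total counts, and the Gln-TTG-1 value in mutants was 0.07 with RLE size factors and 0.06 with total counts.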

How the results depend on the processing

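No block by replicate number could be fitted, because each group has 1 library. Genotypes were compared within conditions instead. With all 6 libraries, the genotype call for shared 51-nt reads held in 10 of 10 settings (2.68 to 3.10 on the log2 scale), as did that for all Gln reads as 1 feature (2.48), and that for 51-nt CTG reads in 9 of 10. The settings on mismatch-free reads, on reads from base 1, on the nearest gene and on 50 reads of each length were chosen after seeing the data. With mismatch-free reads the CTG 51-nt value was 0.89 (adjusted p = 0.190), its length difference 0.50 and that of shared reads 1.54. The latter also missed the threshold with short reads corrected for C at A (1.95), from base 1 (2.30, from 4 short reads) and with no filter on low counts (1.96). Leaving out 1 library gave 2.78 to 3.36 for shared and 1.47 to 2.05 for CTG 51-nt reads by genotype, and 1.59 to 2.20 for the length difference of the shared class. The share difference ran from 23.5 to 28.5 points without 1 library. It was 22.6 with short reads corrected for C at A and 34.7 with short reads from base 1.

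Values that missed the threshold changed sign as follows. CTG short reads by genotype stood at -0.15 with total counts and at -0.10 to 0.44 without 1 library. TTG short reads by genotype stood at 0.25 with short reads of 30 to 40 nt, 0.0074 corrected for C at A, 0.64 from base 1, 0.021 beside mismatch-free 51-nt reads, and -0.36 to 0.38 without 1 library. For heat shock, CTG 51-nt reads stood at 0.35 with RLE and with DESeq2 (0.35), 0.024 with a filter of 10 counts in 3 libraries, 0.12 with each sequence counted once, 0.075 with 30 to 40 nt, 0.24 mismatch-free, and -0.52 to 0.61 without 1 library. CTG short reads stood at 0.044 with RLE and 0.044 with DESeq2, and at -0.84 to 0.12 without 1 library. For recovery, CTG short reads stood at -0.014 with no filter and -0.0068 to 0.46 without 1 library, TTG short reads at -0.76 to 0.83 without 1 library, and short reads of all Gln as 1 feature at 0.11. With short reads from base 1, of which the shared class has only 4 over the 6 libraries, its length difference was -0.99 for heat shock and 1.56 for recovery. Without 1 library the length difference of the shared class for recovery was -1.20 to 0.073. With all Gln reads as 1 feature it was -0.070 for heat shock; for recovery it was -1.03, with the same sign and past the threshold. The cause of these changes was not tested. The median of all 39 features by genotype was 0.04, and was -0.19 with RLE and -0.32 with total counts, so differences near these sizes follow the scaling. The 5113 reads of mutant recovery limit every value that rests on that library.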
